A study of Mus musculus with 6 samples.

Results

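Genes for voltage-gated calcium channels, potassium channels and the TRPC, TRPM and TRPV cation channels were described in cultured vascular smooth muscle cells from mouse aorta. Members were all rows whose symbol begins with Kcn, with Cacn, or with Trpc, Trpm or Trpv followed by a digit, except names ending in ot1. The rule took 116 of the 25939 listed genes. Of these, 112 were counted by symbol as channel subunits, with the regulator Kcnrg placed among the potassium accessory genes. Trpc4ap (a protein that binds TRPC channels and a ubiquitin ligase), Trpc5os and the antisense genes Kcnd3os and Kcnmb4os2 match the pattern of names without being subunits. RNA came from 6 libraries: 3 of control cells and 3 of cells given trimethylamine N-oxide (TMAO), a metabolite of gut bacteria and liver, for 48 h. All cells were grown in culture, and the sources used here do not give the dose of TMAO, the passage, or the strain, sex and number of mice. Whether the 3 samples of a group were separate cultures or animals is not stated. The p-values then measure only how far these samples differ, and that spread may be technical.

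In the artery wall, calcium that enters a smooth muscle cell through voltage-gated channels starts contraction. Potassium leaving the cell through potassium channels holds the membrane negative and keeps those calcium channels closed. TRP channels are less selective: they pass sodium, calcium or magnesium and respond to receptors, stretch, temperature or lipids. A channel is built from pore subunits, which form the path for the ion, and in many families from accessory subunits, which set how many channels reach the membrane and when they open. Contractile arterial muscle is known for the L-type calcium pore Cacna1c and for the large-conductance calcium-activated potassium (BK) channel, made of Kcnma1 and Kcnmb1. Dividing smooth muscle cells in culture are known to lose part of this set and to gain the intermediate-conductance channel Kcnn4.

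Levels are in FPKM, which count fragments relative to exon length and library size. They can be compared between genes only as far as the annotated exon length matches the transcripts present, which was not tested. Of the 116 members, 12 had a mean of at least 1 FPKM over the 6 libraries (10.3%), against 11005 of all 25939 listed genes (42.4%). The same number reached 1 FPKM in every library. A further 9 had means between 0.5 and 1 FPKM, 95 were below 0.5 FPKM and 78 of these were below 0.1 FPKM. Just inside the threshold stood Kcnd1, at a mean of 1.25 FPKM, and just outside it Kcnj8, at 0.954 FPKM. In order, the 12 were Trpm7, Kcne4, Trpc4ap, Kcnab1, Cacnb3, Cacna2d1, Trpv2, Kcnk2, Cacng7, Kcnj15, Kcnn4 and Kcnd1. None of the calcium pores and none of the TRPC channels was among them.

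**Figure D1:**
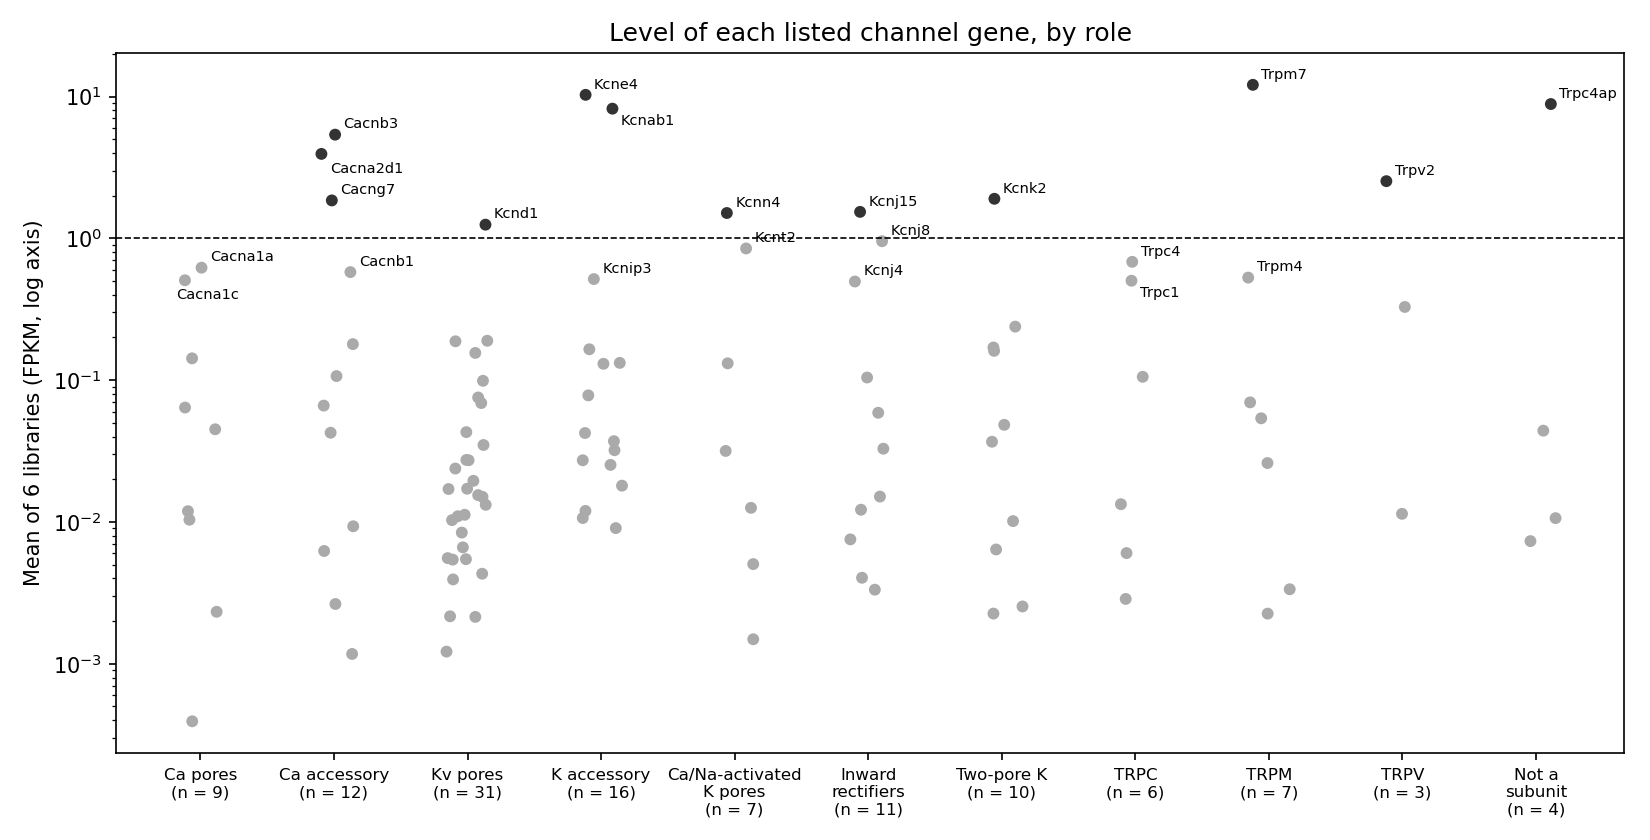
Mean FPKM over the 6 libraries (log axis) of each of the 116 members, grouped by role on the horizontal axis. Each point is a gene, dark at or above 1 FPKM (dashed line), and genes from about 0.5 FPKM upward are named. The calcium pores and TRPC channels all lie below the line, and most voltage-gated potassium pores lie below 0.1 FPKM.

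The cells carried some smooth muscle markers and had low levels of others. Of 8 smooth muscle markers 4 had a mean of at least 1 FPKM: Acta2, Smtn, Lmod1 (1.84 to 2.44 FPKM) and Des. Smooth muscle actin (Acta2) stood at 476 to 493 FPKM and smoothelin (Smtn) at 4.14 to 4.82 FPKM, whereas the myosin heavy chain Myh11 stood at 0.0876 to 0.110 FPKM, calponin (Cnn1) at 0.478 to 0.974 FPKM and Tagln at 0.609 to 0.938 FPKM. Of 8 fibroblast markers 7 had a mean of at least 1 FPKM, with Pdgfra at 22.6 to 27.6 FPKM and a list sum of 653 to 665 FPKM in Control and 620 to 638 FPKM in TMAO. Of 8 macrophage markers 4 reached that level, Lyz2 at 65.0 to 84.8 FPKM and the leukocyte marker Ptprc at no more than 0.0562 FPKM; their sum was 80.8 to 101 FPKM in Control and 79.3 to 87.0 FPKM in TMAO. Of 7 listed endothelial markers 1 reached it, the sialomucin Emcn, and their sum was 15.5 to 16.8 FPKM in Control and 12.6 to 13.2 FPKM in TMAO, with Pecam1 at no more than 0.0964 FPKM. Of 10 neuronal and glial markers 1 reached it, the tubulin gene Tubb3 (9.43 to 12.4 FPKM), with Snap25 and Rbfox3 each at 0 in 3 libraries. The implied library totals were 14991252 to 16806728 reads. Genes listed at 0 numbered 5973 to 6640 in the Control libraries and 5095 to 5590 in the TMAO libraries, and the nuclear RNA Malat1 stood at 75.0 to 113 FPKM and at 153 to 218 FPKM. The fibroblast and endothelial sums did not overlap between the groups, both being lower in TMAO, as Kcne4 and Kcnk2 were below. The endothelial difference lay in Emcn, at means of 15.8 and 12.3 FPKM. Pecam1, Cdh5, Nos3 and Tek had higher means in TMAO, and Kdr and Vwf had lower ones. All of these were low, with no group mean above 0.184 FPKM. In the fibroblast list Col1a1 had means of 185 and 163 FPKM and Pdgfra 26.5 and 23.8 FPKM. Lum had 4.40 and 3.72 FPKM and Ly6a 415 and 410 FPKM. In the other direction, Dcn had 20.3 and 21.1 FPKM, Dpt 6.94 and 7.29 FPKM and Pi16 0.102 and 0.158 FPKM. Cd34 had 1.53 FPKM in both groups. The smooth muscle regulator Myocd stood at 0.602 to 0.674 FPKM in Control and 0.439 to 0.518 FPKM in TMAO. Desmin (Des) went the other way, at 0.935 to 1.27 FPKM in Control and 1.32 to 1.87 FPKM in TMAO. Each of the other smooth muscle markers overlapped between the groups. The smooth muscle sum, mostly Acta2, overlapped too, at 494 to 499 FPKM in Control and 486 to 502 FPKM in TMAO. The part of these markers in the channel values was not tested. Fewer cells of a type cannot be told apart from less RNA per cell.

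After TMAO, none of the channel genes that could be tested changed past the threshold. Testing used limma on log2(FPKM + 1) over the 11062 genes that reached 1 FPKM in 3 or more libraries. Of these, 20 (0.181%) passed an adjusted p of 0.05, 8 of them higher (0.0723%) and 12 lower (0.108%) after TMAO, and of the 13 members among them (the 12 above and Kcnj8) 0 passed. At an unadjusted p of 0.05, 1 of the 13 passed, Kcne4, against 13.1% of all tested genes. The log2 fold change was above 0 for 7 members and below 0 for 6, with a median of 0.02, and the median over all tested genes was also 0.02. The filter selects genes on their level, so these 13 do not stand for all 116.

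**Figure D2:**
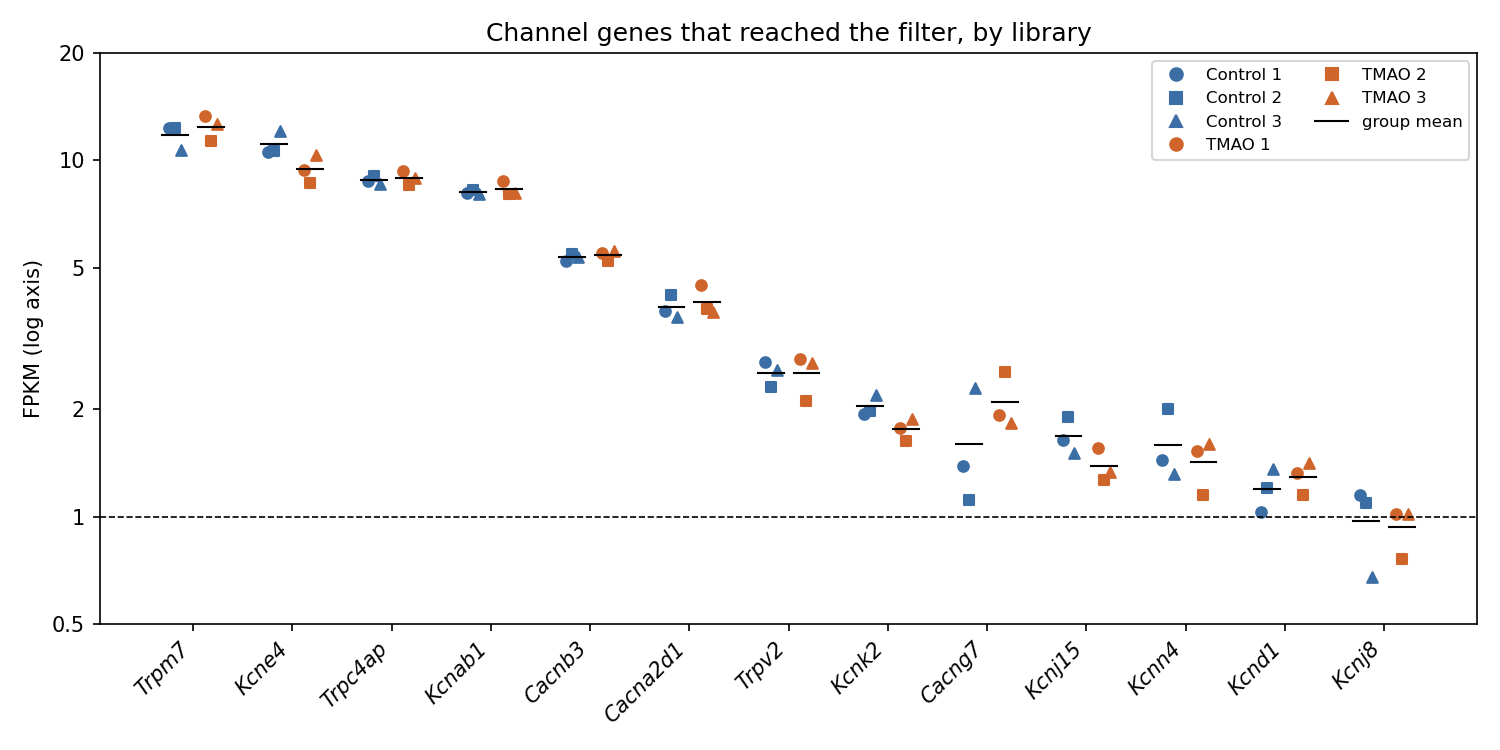
FPKM (log axis) of the 13 members that reached the filter, in each library. Blue marks are Control and orange marks TMAO, shapes give the replicate number, short lines are group means and the dashed line is 1 FPKM. The groups separate for Kcne4 and Kcnk2 and overlap for the other 11 genes.

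None of the 9 pore-forming calcium channel genes reached a mean of 1 FPKM, and 3 of the 12 accessory genes did, Cacnb3, Cacna2d1 and Cacng7. Of the other accessory genes, 8 were below 0.5 FPKM. The 9 listed pore genes (Cacna1) summed to 1.36 ± 0.238 FPKM (SD, n = 3) in Control and 1.45 ± 0.149 FPKM in TMAO. The 12 accessory genes summed to 11.6 ± 0.464 and 12.7 ± 0.615 FPKM. Those accessory sums did not overlap, but the highest Control library and the lowest TMAO library both came to 12.1 FPKM when rounded. In each library the accessory sum was 7.18 to 10.4 times the pore sum, and the ratios of the groups overlapped.

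Among the pores, the P/Q-type gene Cacna1a, better known from neurons, and the L-type gene Cacna1c were the highest. Cacna1a stood at 0.595, 0.679 and 0.556 FPKM in Control 1 to 3 and at 0.708, 0.581 and 0.607 FPKM in TMAO 1 to 3. Cacna1c stood at 0.417, 0.550 and 0.384 FPKM in Control and at 0.617, 0.496 and 0.574 FPKM in TMAO. Both genes had overlapping groups. The T-type genes Cacna1g and Cacna1h and the L-type gene Cacna1d had means of 0.142, 0.0119 and 0.0104 FPKM. FPKM divides by all annotated exons of a gene, which in GENCODE M21 come to 21191 bases for Cacna1c and 4010 bases for Cacnb3. Cacna1a and Cacna1c are among the 8 members whose M21 length did not give whole reads. The length behind their FPKM may therefore differ from that of M21. How much of the annotated length the transcripts of these cells use was not tested.

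Cacnb3 (chromosome 15, 98630840 to 98644529, plus strand of mm10) codes for a beta subunit, which binds the pore inside the cell and helps it reach the membrane. It stood at 5.23, 5.46 and 5.36 FPKM in Control 1 to 3 and at 5.49, 5.21 and 5.56 FPKM in TMAO 1 to 3. The groups overlapped, and the 95% interval of the log2 fold change, 0.02, ran from -0.13 to 0.16 (adjusted p by limma = 0.950). Of the other beta subunits, Cacnb1 had a mean of 0.578 FPKM, Cacnb2, the main cardiac form, 0.107 FPKM, and Cacnb4 0.0426 FPKM.

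Cacna2d1 (chromosome 5, 15934691 to 16374511, plus strand) codes for the extracellular alpha2-delta subunit, the target of gabapentin. It stood at 3.77, 4.19 and 3.64 FPKM in Control and at 4.45, 3.82 and 3.76 FPKM in TMAO (limma log2 fold change 0.04, 95% interval -0.14 to 0.22, adjusted p = 0.878). TMAO 1 and Control 2 were the highest libraries of their groups, and the groups overlapped.

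Cacng7 (chromosome 7, 3332955 to 3368221, plus strand) belongs to the gamma family, whose members are best known as partners of glutamate receptors in neurons. It stood at 1.39, 1.12 and 2.29 FPKM in Control and at 1.93, 2.54 and 1.83 FPKM in TMAO, from 41 to 99 reads per library. Control 3 lay above TMAO 1 and TMAO 3. It had the highest log2 fold change of the 13 members, 0.27, with the widest 95% interval of them, -0.11 to 0.66 (adjusted p by limma = 0.545). The log2 fold change was 0.46 without Control replicate 3, 0.14 without Control replicate 2 and 0.17 without TMAO replicate 2. Its chromosomal neighbour Cacng8 had a mean of 0.180 FPKM.

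Among potassium channels, 2 accessory genes stood far above the voltage-gated pores. The 16 accessory genes include the Kcnmb subunits of the BK channel. They summed to 20.3 ± 0.962 FPKM in Control and 19.2 ± 0.944 FPKM in TMAO (SD, n = 3). The 31 voltage-gated pore genes summed to 2.31 ± 0.229 and 2.41 ± 0.168 FPKM, so that the accessory sum was 7.84 to 9.59 times the voltage-gated pore sum in each library. All 59 potassium pore genes, of every class, summed to 9.31 to 11.9 FPKM over the 6 libraries, and against these the ratio was 1.67 to 1.97. Nearly all of the accessory sum came from Kcne4 and Kcnab1, and Kcne4 alone made up 52.1%.

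**Figure D3:**
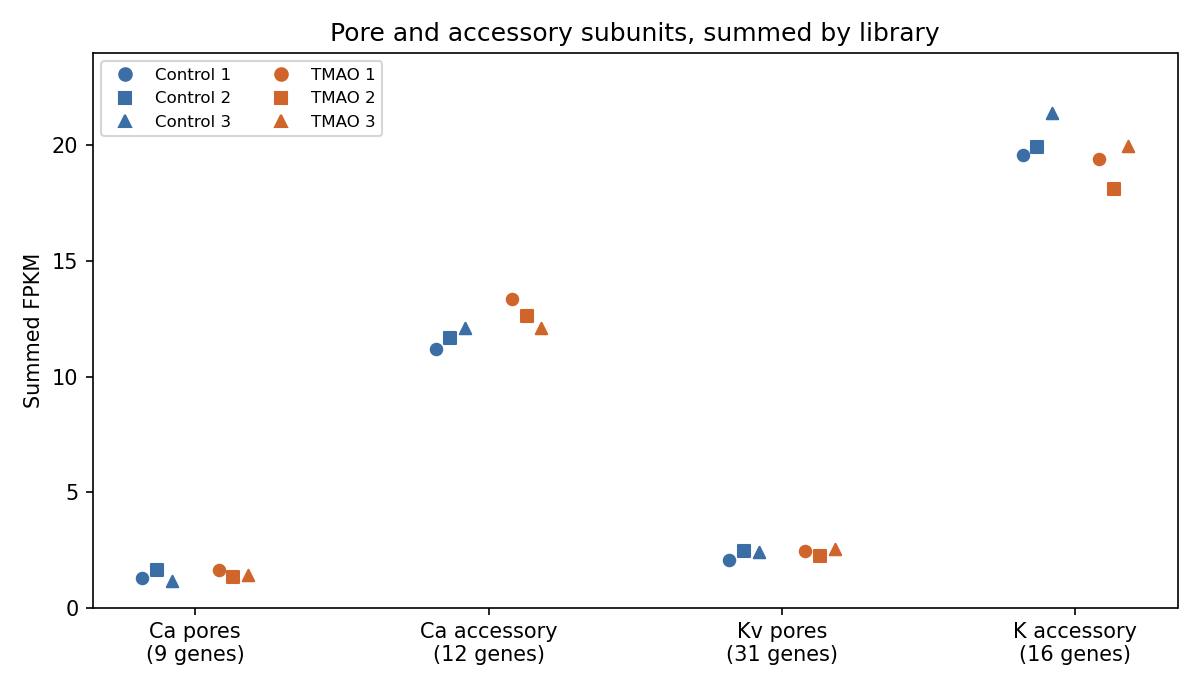
Summed FPKM of calcium channel pore and accessory genes (Ca), voltage-gated potassium pore genes (Kv) and potassium accessory genes (K). The K set includes the Kcnmb subunits of the BK channel. Each point is a library (blue Control, orange TMAO, shape for the replicate number). Accessory sums lie between 11.2 and 21.4 FPKM and pore sums between 1.16 and 2.55 FPKM in every library.

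Kcne4 (chromosome 1, 78816758 to 78820028, plus strand) codes for a small membrane protein that damps several voltage-gated potassium pores. It stood at 10.6, 10.6 and 12.1 FPKM in Control 1 to 3 and at 9.41, 8.61 and 10.3 FPKM in TMAO 1 to 3. All TMAO libraries lay below all Control libraries, TMAO 3 by a narrow margin. The means were 11.1 ± 0.877 and 9.45 ± 0.867 FPKM (SD, n = 3). The log2 fold change by limma was -0.21 ± 0.08 (SE), with a 95% interval from -0.38 to -0.04. Its unadjusted p was 0.0196 and its adjusted p = 0.281 with limma, which did not pass. With voom on 365 to 541 reads per library the log2 fold change was -0.24 (adjusted p by limma = 0.227).

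Kcnab1 (chromosome 3, 65109384 to 65378223, plus strand) codes for a beta subunit in the cytoplasm that speeds the inactivation of Kcna pores. It stood at 8.11, 8.26 and 8.02 FPKM in Control and at 8.76, 8.02 and 8.10 FPKM in TMAO (limma log2 fold change 0.02, 95% interval -0.11 to 0.16, adjusted p = 0.904). The 6 Kcna pore genes that it can join summed to 0.415 to 0.609 FPKM in Control and 0.375 to 0.512 FPKM in TMAO. The 5 Kcnq pore genes, other partners of the Kcne family, summed to at most 0.0822 FPKM in any library. The other accessory gene from 0.5 FPKM upward was Kcnip3, a calcium sensor that binds Kcnd pores, at a mean of 0.516 FPKM.

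Of 59 potassium pore genes, 4 had a mean of at least 1 FPKM, and each belonged to a different class: the tandem-pore leak channel Kcnk2, the inward rectifier Kcnj15, the calcium-activated channel Kcnn4 and the voltage-gated channel Kcnd1. What these classes share is the selectivity filter, the narrowest part of the pore, where threonine, isoleucine or leucine, glycine, an aromatic residue and glycine line the path of the ion. The coding strands of their filters, read from GENCODE M21 transcripts, are shown to place the 4 classes side by side, with the 15 bases of the filter in capitals.
Kcnk2, first loop: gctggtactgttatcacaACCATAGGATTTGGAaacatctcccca
Kcnk2, second loop: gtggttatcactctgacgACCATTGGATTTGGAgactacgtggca
Kcnj15: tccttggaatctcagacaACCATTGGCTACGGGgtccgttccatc
Kcnn4: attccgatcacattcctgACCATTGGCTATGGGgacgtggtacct
Kcnd1: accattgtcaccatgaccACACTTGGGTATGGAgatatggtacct
Kcnk2 holds 2 such loops in each protein and the other 3 genes hold 1. The aromatic codon was TTT, for phenylalanine, in both loops of Kcnk2, TAC for tyrosine in Kcnj15, and TAT for tyrosine in Kcnn4 and Kcnd1. On mm10 (GRCm38) these stretches lie at chr1:189258879-189295618 and chr1:189256569-189256613 on the minus strand, and at chr16:95295962-95296006, chr7:24379180-24379224 and chrX:7824938-7831190 on the plus strand. All are coding exon, and introns interrupt the first loop of Kcnk2 and the stretch of Kcnd1.

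Kcnk2 (chromosome 1, 189207930 to 189402273, minus strand), known as TREK-1, is a background channel opened by stretch and lipids. It stood at 1.94, 1.97 and 2.20 FPKM in Control and at 1.78, 1.64 and 1.88 FPKM in TMAO. The groups did not overlap, TMAO being lower. The means were 2.04 ± 0.143 and 1.76 ± 0.120 FPKM (SD, n = 3). By limma the log2 fold change was -0.14, with a 95% interval from -0.32 to 0.04 and an adjusted p = 0.515. An antisense gene covers part of its exons, 12.2% of exon bases overlapping genes on the opposite strand, and the strand setting of the counting is not given in the sources used here. Kcnk2 made up 73.8% of the FPKM of the 10 tandem-pore genes. Kcnk3 (TASK-1), a tandem-pore channel of pulmonary artery muscle, was at 0 in all Control libraries, which allows up to 0.0161 FPKM over that group, and had 1 read in TMAO 1.

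Kcnj15 (chromosome 16, 95257558 to 95300260, plus strand) codes for an inward rectifier better known from kidney and gland. It stood at 1.65, 1.90 and 1.51 FPKM in Control and at 1.56, 1.27 and 1.33 FPKM in TMAO (limma log2 fold change -0.17, 95% interval -0.37 to 0.03, adjusted p = 0.468). TMAO 1 lay between Control 1 and Control 3. Kcnj8 (chromosome 6, 142564837 to 142571614, minus strand), the pore of the vascular ATP-sensitive potassium channel, stood at 1.15, 1.09 and 0.677 FPKM in Control and at 1.02, 0.763 and 1.02 FPKM in TMAO (limma log2 fold change -0.02, adjusted p = 0.959). Control 3 was its lowest library, and without it the mean of Kcnj8 passed 1 FPKM and the number of members at that level became 13. Kcnj2, the main pore of the classical inward rectifier current in arteries, had a mean of 0.104 FPKM.

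Kcnn4 (chromosome 7, 24370263 to 24386690, plus strand), the intermediate-conductance calcium-activated channel, stood at 1.45, 2.01 and 1.31 FPKM in Control and at 1.53, 1.15 and 1.60 FPKM in TMAO. Control 2 was highest and TMAO 2 lowest, and the other 4 libraries lay together (limma log2 fold change -0.09, 95% interval -0.35 to 0.17, adjusted p = 0.797). The BK channel genes of contractile muscle were near the limit of a single read. Kcnma1 had 4, 4 and 2 reads in Control and 4, 3 and 3 in TMAO, a mean of 0.0126 FPKM, and Kcnmb1 had 15 reads over the 6 libraries, a mean of 0.0371 FPKM.

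Kcnd1 (chromosome X, 7822289 to 7838280, plus strand) codes for a rapidly inactivating voltage-gated pore. It stood at 1.03, 1.21 and 1.36 FPKM in Control and at 1.33, 1.15 and 1.41 FPKM in TMAO (limma log2 fold change 0.06, 95% interval -0.14 to 0.27, adjusted p = 0.823). It made up 53.0% of the FPKM of the 31 voltage-gated pores, and the groups overlapped. The delayed rectifier genes known from arterial muscle were far lower: Kcna5 had a mean of 0.0690 FPKM and Kcna2 one of 0.0112 FPKM. Kcnq5 was at 0 in all Control libraries, which allows up to 0.00832 FPKM over that group, and had 3 reads in TMAO 1.

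The TRP channels were led by Trpm7, the highest of all members. Trpm7 (chromosome 2, 126791565 to 126876230, minus strand), a magnesium and calcium channel fused to a kinase, stood at 12.3, 12.3 and 10.7 FPKM in Control and at 13.3, 11.3 and 12.6 FPKM in TMAO. The groups overlapped, at means of 11.8 ± 0.928 and 12.4 ± 1.01 FPKM (SD, n = 3). The log2 fold change was 0.07 and its 95% interval ran from -0.10 to 0.24 (adjusted p by limma = 0.746). It made up 94.6% of the FPKM of the 7 TRPM genes and 71.3% of the 16 TRP genes. Trpm4, a sodium channel opened by calcium that is known from cerebral arteries, had a mean of 0.529 FPKM.

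Trpv2 (chromosome 11, 62574486 to 62600515, plus strand), a stretch-responsive channel, stood at 2.72, 2.31 and 2.57 FPKM in Control and at 2.78, 2.11 and 2.69 FPKM in TMAO (limma log2 fold change -0.01, 95% interval -0.21 to 0.20, adjusted p = 0.984). Trpv4, known from endothelium and muscle of arteries, stood at 0.147, 0.261 and 0.248 FPKM in Control and at 0.668, 0.400 and 0.245 FPKM in TMAO, from 9 to 45 reads per library. Its TMAO values spread widely, TMAO 3 lay within the Control range, and voom on the reads gave 0.92 as log2 fold change (adjusted p by limma = 0.268). The 6 TRPC genes, the receptor-operated branch, summed to 1.33 ± 0.0909 FPKM in Control and 1.29 ± 0.109 FPKM in TMAO. Trpc4 had a mean of 0.683 FPKM, Trpc1 0.502 FPKM and Trpc6 0.106 FPKM. Trpc4ap (chromosome 2, 155634271 to 155692384, minus strand), which is no channel, stood at 8.58 to 9.06 FPKM in Control and at 8.52 to 9.31 FPKM in TMAO (adjusted p by limma = 0.930).

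**Figure D4:**
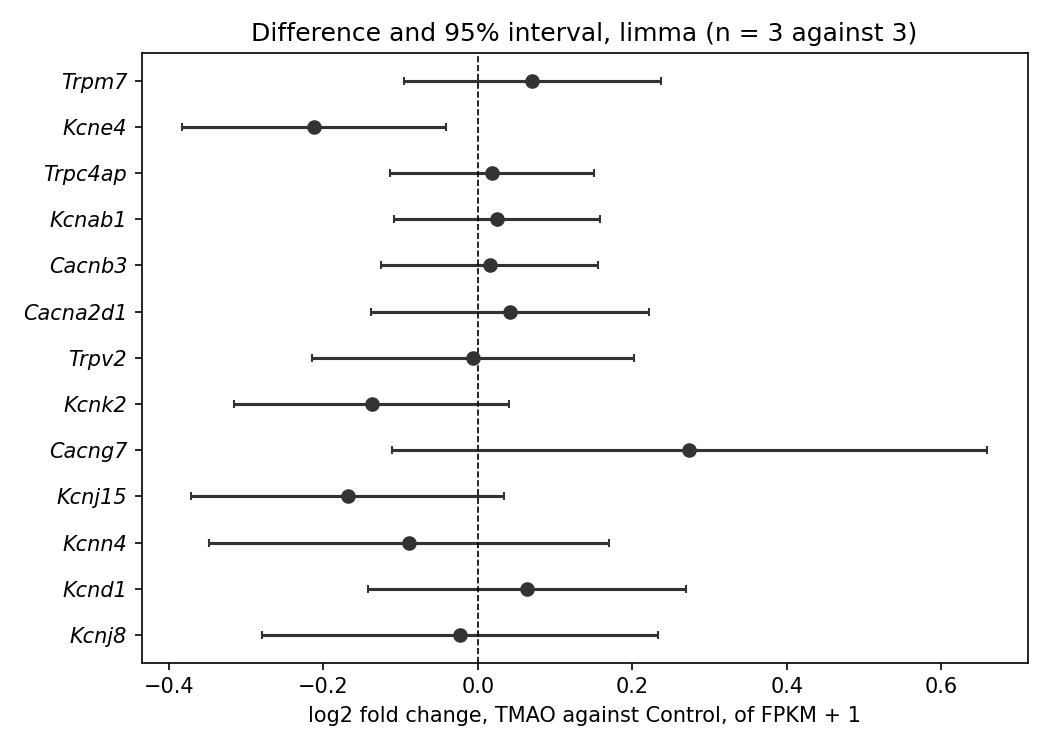
Log2 fold change of TMAO against Control on the log2(FPKM + 1) scale for the 13 tested members, with 95% intervals from limma (n = 3 against 3). The interval of Kcne4 lies below 0, from -0.38 to -0.04 before adjustment over all genes, and the other 12 intervals include 0.

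Of the 103 members below the filter, 8 had all TMAO libraries above all Control libraries and 3 had all below. Over all 14877 listed genes that were not tested these shares were 6.65% and 2.03%. Among the 13 tested members 0 separated upward and 2 downward, where all tested genes gave 12.4% and 6.23%. Over all 116 the counts were 8 and 5, and over all listed genes the shares were 9.12% and 3.82%. With 3 libraries against 3, the smallest p that an exact two-sided permutation test of a single gene can give is 0.1, so separation alone cannot pass 0.05. With no filter, limma called 0 of 116 members and 0% of all genes, and voom on reads called 0 of 27 members and 0.853% of all genes. At an unadjusted p of 0.05 these fits passed 5 of 116 members (7.71% of all genes) and 4 of 27 (13.8%).

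Of the members that were not tested, those from 0.5 FPKM upward whose groups did not overlap were Cacnb1, Kcnt2 and Trpc4. Cacnb1, the beta subunit of the skeletal muscle calcium channel, stood at 0.397, 0.513 and 0.447 FPKM in Control and at 0.868, 0.609 and 0.633 FPKM in TMAO, from 27 to 65 reads per library. TMAO 1 was the highest, and voom gave a log2 fold change of 0.63 (adjusted p by limma = 0.223). Kcnt2, a sodium-activated potassium pore, stood at 0.591, 0.846 and 0.690 FPKM in Control and at 1.11, 0.880 and 0.974 FPKM in TMAO, with Control 2 just under TMAO 2 (no filter, limma adjusted p = 0.621). In the other direction, Trpc4 stood at 0.763, 0.835 and 0.667 FPKM in Control and at 0.580, 0.663 and 0.590 FPKM in TMAO (voom, limma adjusted p = 0.437). Control 3 and TMAO 2 were nearly level for Trpc4. The remaining 8 had means below 0.2 FPKM: Kcnrg, Trpm3, Kcnj13, Trpm6, Cacna1h and Cacna1d with TMAO higher, and Kcna4 and Kcne3 with TMAO lower. Some of these rested on single reads, such as Kcne3 with 1 read in each Control library and Kcnj13 with 2, 1 and 1 in the TMAO libraries. Malat1 was higher and fewer genes were at 0 in the same TMAO libraries, as given above, and their part in these low values was not tested. The count of members at 0 was 43, 35 and 34 in Control and 34, 38 and 24 in TMAO, and overlapped.

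Promoter sequence was examined because it was not part of the rule. RefSeq promoter windows, 250 bases before to 50 bases after each annotated start on GRCm38.p6, were matched by symbol for 89 of 116 members. The windows of the highest channel subunits, Trpm7 and Kcne4, and of the BK channel genes, which were near 0, are printed with each CpG site in capitals, to show that the number of sites differed widely at either level.
Trpm7: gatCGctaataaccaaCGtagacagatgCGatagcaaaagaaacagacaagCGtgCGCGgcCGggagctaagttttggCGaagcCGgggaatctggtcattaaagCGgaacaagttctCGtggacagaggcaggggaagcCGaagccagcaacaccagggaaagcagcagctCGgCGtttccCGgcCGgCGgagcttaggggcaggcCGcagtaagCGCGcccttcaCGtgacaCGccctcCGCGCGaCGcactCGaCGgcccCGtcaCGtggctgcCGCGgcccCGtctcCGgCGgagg
Kcne4: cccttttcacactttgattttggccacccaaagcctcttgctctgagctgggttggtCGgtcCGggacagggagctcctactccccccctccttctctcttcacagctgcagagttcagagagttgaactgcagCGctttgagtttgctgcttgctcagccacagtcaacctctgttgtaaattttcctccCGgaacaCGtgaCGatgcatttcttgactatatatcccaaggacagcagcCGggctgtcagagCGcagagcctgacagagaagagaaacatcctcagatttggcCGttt
Kcnma1: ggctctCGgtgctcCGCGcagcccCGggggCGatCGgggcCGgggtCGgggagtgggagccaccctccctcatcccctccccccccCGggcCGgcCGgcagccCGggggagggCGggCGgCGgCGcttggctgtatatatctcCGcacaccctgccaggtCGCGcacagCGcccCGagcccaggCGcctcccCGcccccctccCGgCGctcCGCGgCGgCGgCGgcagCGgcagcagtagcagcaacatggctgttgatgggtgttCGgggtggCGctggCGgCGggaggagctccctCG
Kcnmb1: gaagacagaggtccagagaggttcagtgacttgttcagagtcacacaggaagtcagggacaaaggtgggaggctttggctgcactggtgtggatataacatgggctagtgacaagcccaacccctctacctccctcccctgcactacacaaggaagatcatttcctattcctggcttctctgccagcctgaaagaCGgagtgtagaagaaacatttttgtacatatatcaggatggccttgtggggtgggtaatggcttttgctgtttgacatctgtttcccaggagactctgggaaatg
These lie at chr2:126876212-126876511 (minus strand), chr1:78816661-78816960 (plus), chr14:24004156-24004455 (minus) and chr11:33962763-33963062 (plus). Trpm7 held 35 CpG sites at a mean of 12.1 FPKM and Kcne4 held 9 at 10.3 FPKM. Kcnma1 held 36 at 0.0126 FPKM and Kcnmb1 held 1 at 0.0371 FPKM.

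Taking the most CpG-rich window of each gene, the 11 matched members at or above 1 FPKM had a median of 15 CpG sites (2 to 42) and the 78 below it a median of 16.5 (1 to 63). The median over all 27025 genes with a window was 8. The hexamer GGGCGG, searched on both strands, was in a window of 7 of the 11 and 46 of the 78, and of 38.2% of all genes. TATAAA, likewise on both strands, was in 3 of the 11 (Kcnab1, Trpv2 and Kcnj15), 5 of the 78 and 15.7% of all genes. The CArG box, the site of serum response factor, which can overlap TATAAA, was in 0 of the 11, 1 of the 78 (Trpc6) and 1.8% of all genes. Per window of the same length the shares over all 32851 windows were 35.7%, 13.6% and 1.6%. A match is only a string of letters, and which start these cells used was not tested.

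**Figure D5:**
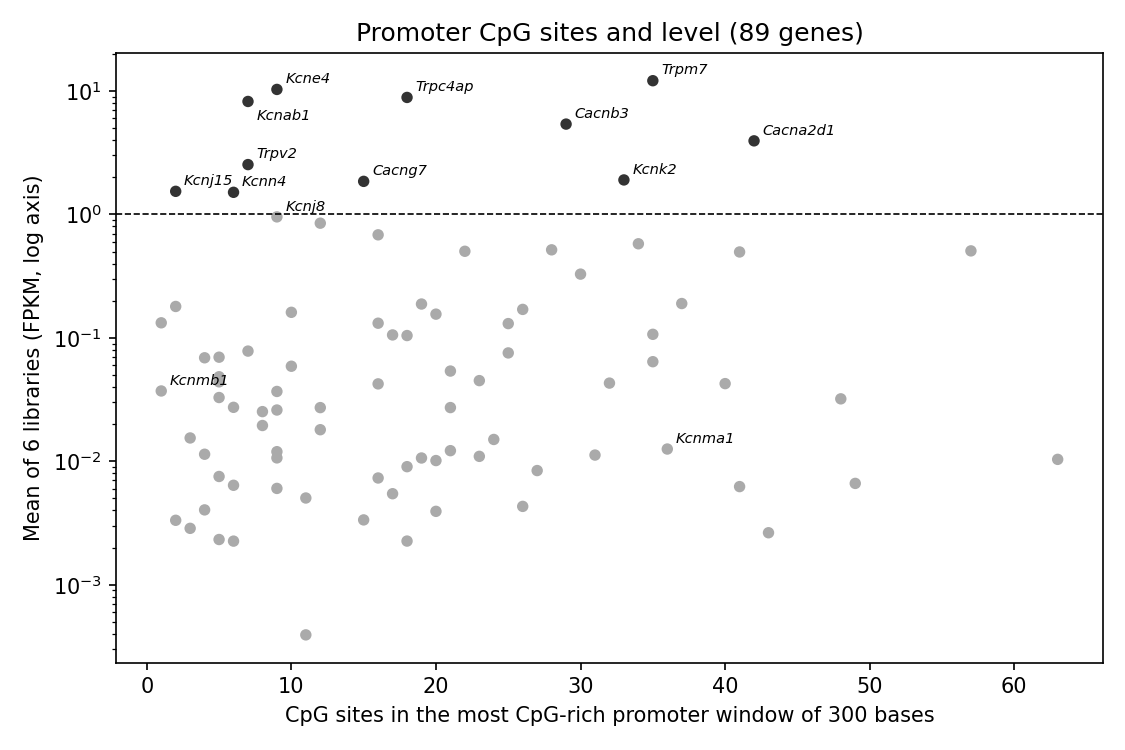
Number of CpG sites in the most CpG-rich RefSeq promoter window of 300 bases (horizontal axis) against mean FPKM over the 6 libraries (log axis) for 89 members. Dark points are at or above 1 FPKM (dashed line). Genes above the line span 2 to 42 CpG sites and genes below it 1 to 63.

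Genes that work beside these channels gave no call either. A list of 87 names covered calcium release and store-operated entry, pumps, the mitochondrial uniporter, other cation, chloride and sodium channels, and channel partners. Of these 79 were listed and 48 tested, and 0 passed the threshold, against 0.181% of all tested genes. At an unadjusted p of 0.05, 6 of 48 passed (13.1% of all tested genes). The log2 fold change was above 0 for 23 and below 0 for 25, with a median of -0.01. In store-operated entry, where Stim sensors open the Orai pores, and release of stored calcium, 6 of 7 tested genes were below 0, as were both tested pumps. For the mitochondrial uniporter 5 of 7 were above 0, for chloride and sodium channels 4 of 6, for other cation channels 4 of 8 and for partners 9 of 18. Over all tested genes 40.0% were below 0.

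The endoplasmic reticulum calcium pump Atp2a2 had a mean of 15.5 FPKM, the polycystin Pkd2 11.4 FPKM, the stretch channel Piezo1 10.3 FPKM, and the store-operated pores Orai3 and Orai1 8.80 and 6.92 FPKM. Among release channels, the inositol trisphosphate receptors Itpr3 and Itpr2 stood at 1.64 and 1.61 FPKM, whereas Ryr2, the highest ryanodine receptor, stood at 0.0102 FPKM. The sulfonylurea receptor Abcc9, which pairs with Kcnj8 in vascular ATP-sensitive channels, had a mean of 0.325 FPKM.

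The 6 list genes with the smallest p were Orai2, Tpcn2, P2rx4, Micu3, Nfatc4 and Calm2. Orai2, a store-operated pore, stood at 2.69, 2.86 and 2.88 FPKM in Control and at 2.40, 2.23 and 2.14 FPKM in TMAO, without overlap (limma log2 fold change -0.23, adjusted p = 0.243). Tpcn2, a lysosomal cation channel, stood at 2.67, 2.69 and 2.89 FPKM in Control and at 3.75, 3.07 and 3.48 FPKM in TMAO (limma log2 fold change 0.24, adjusted p = 0.250). Its groups did not overlap either. P2rx4, a calcium-permeable channel opened by ATP, stood at 4.78 to 5.22 FPKM in Control and at 5.47 to 6.24 FPKM in TMAO (adjusted p by limma = 0.303). Micu3, a regulator of the mitochondrial uniporter, stood at 1.15 to 1.20 FPKM and at 1.45 to 1.56 FPKM (adjusted p by limma = 0.318). Neither gene had overlapping groups. Of the 48 tested list genes, 4 separated upward and 2 downward, where all tested genes gave 12.4% and 6.23%. The upward genes were Tpcn2, P2rx4, Micu3 and Nfatc4. The downward ones were Orai2 and Letm1, a gene of the uniporter list outside the 6 named, and Calm2 had overlapping groups. The 6 named genes were picked for their small p, so separation among them is no further support. The transcription factor gene Nfatc4, a target of calcineurin, differed by 0.21 on the log2 scale (adjusted p by limma = 0.362) and the calmodulin gene Calm2 by -0.11 (adjusted p by limma = 0.368).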

How the data were processed

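RNA of 3 Control and 3 TMAO libraries was read with a stranded poly(A) kit, per the labels' protocols. The authors deposited a table per library with gene identifier, symbol and FPKM. The submitters' processing notes name Trimmomatic, HISAT2, Cufflinks, HTSeq and the build mm10, with no versions. The sources used here do not give the annotation release or the strand setting. In Control 1 the column name reads PKM, with values on the scale of the others.

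Exon lengths and coordinates came from GENCODE M21 on the same build. With 1 total per library, FPKM gave whole reads within 0.01 in all 6 libraries for 98.5% of annotated genes and 108 of 116 members. Reads are not quoted for the other 8, which include Kcnab1, Kcnt2, Cacna1a and Cacna1c. Limma 3.58.1 (R 4.3.3) was fitted to log2(FPKM + 1) with trended, robust variance, and p-values were Benjamini-Hochberg adjusted over all 11062 tested genes. Fold changes on this scale understate those of low genes. Within each group, no library repeated another (chi-square per degree of freedom of 3.01 to 7.28). Pairs across the groups were not compared in this way. Limits from a count of 0 take 3 reads and cover counting error only. Python 3.11.15 made tables and figures.

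Members and lists were chosen with earlier results of these data known. Named were members with a mean of at least 1 FPKM, those from 0.5 FPKM, a panel of arterial channels, and the 6 partner genes with the smallest p. Kcnj11, of that panel, was not among the 11 listed inward rectifier genes and so was not analysed. No listed gene was at 0 in all libraries, and channel genes without a row lie outside the 116. Some other genes of the panel are not reported here. Members singled out for separated groups were chosen after their values were seen. So were Letm1, Cacnb4, Cacng8, Abcc9, the 4 printed promoters and the release and entry channels named for their level.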

Additional observations from a re-analysis of the deposited data

How the results depend on the processing

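The count of channel genes past the threshold was 0 in all 15 alternative fits, as was that of the partner list; with voom or no filter the members fitted were 27 and 116. The count over all genes, 20, became 0 with no filter (0 of 116 members), 113 with voom on reads, and 11 to 58 with a library left out: 11 without Control replicate 3, 13 without TMAO replicate 1 and 58 without TMAO replicate 2. The number of members at the level was 12 or 13 with a library left out, 21 at a mean of 0.5 FPKM and 7 at 2 FPKM.

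Of 283 alternative values of 19 named genes, 17 had the other sign and 266 the same; the smallest adjusted p among them was 0.136 with limma. Quantile normalization and median-ratio size factors gave log2 fold changes of -0.0030 and -0.017 for Trpc4ap, -0.0013 and -0.011 for Kcnab1 and -0.012 and -0.019 for Cacnb3. Leaving out a library gave ranges of -0.0094 to 0.048 for Trpc4ap, -0.011 to 0.046 for Kcnab1, -0.00039 to 0.039 for Cacnb3, -0.021 to 0.088 for Cacna2d1, -0.059 to 0.082 for Trpv2, -0.17 to 0.024 for Kcnn4 and -0.14 to 0.043 for Kcnj8. Without changing sign, Trpm7 ranged from 0.0086 (without Control replicate 3) to 0.13, Kcnd1 from 0.0077 (without Control replicate 1) to 0.12, Kcnj15 from -0.22 to -0.11 (without Control replicate 2) and Nfatc4 from 0.13 (without Control replicate 1) to 0.25. The cause was not tested. With the replicate number as a block, 22 genes and 0 members passed. The deviations of same-numbered libraries had correlations of -0.086, -0.10 and 0.056, and other pairs of a Control and a TMAO library had -0.061 to 0.14. Such values cannot settle whether same-numbered samples were paired, and the labels do not say.

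Depth limits the weaker channels: 46 of the 108 members with recovered reads had fewer than 10 reads over the 6 libraries.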
